A study of Mus musculus with 10 samples.

Results

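The genes described here are 33 subunits of the mouse proteasome, measured in liver after ethanol or maltose gavage. They were chosen by name: the 14 subunits of the core particle (Psma1 to Psma7 and Psmb1 to Psmb7), 17 subunits of the regulatory particle (Psmc and Psmd genes) and the activators Psme3 and Psme4. Each gene is represented by the probe with the highest mean liver signal among those whose RefSeq accession leads to its symbol. All 33 had such a probe, all 33 were well above background on all 10 arrays, and all 33 were among the 26122 genes tested. Of these 26122, 15110 had a gene symbol, and the rest were array entries counted under their own name. Entries above background on as few as 3 arrays were kept. The shares over all genes below therefore include entries without a symbol and entries dimmer than the subunits.

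The mice were male C57BL/6N, with no genetic change given in the labels. By those labels 3 arrays held liver RNA after a maltose gavage equal in calories to the lower ethanol dose. A further 4 arrays held liver RNA after a gavage of 5 g/kg ethanol and 3 after 7 g/kg. The control is therefore not matched in calories to the higher dose, and no untreated group was part of the comparison. Age and the time from gavage to collection are not given in the sources used here. Liver cDNA carried the red dye Cy5 on every array and a commercial pool of mouse RNA the green dye Cy3. The labels name that pool Ambion Mouse Assorted Total RNA but also give its tissue as liver. A level below is the log2 ratio of liver over this reference on 1 array, and a change is the difference between group means of that log2 ratio. Since the labels do not say that each array was a separate animal, each p-value reflects only how much these arrays varied, which may be technical in part.

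The proteasome is the protease that breaks down proteins tagged with ubiquitin. Its core is a barrel of stacked rings: outer rings of alpha subunits gate the entry, and inner rings of beta subunits hold the proteolytic sites inside. The regulatory particle caps the barrel, with a base of ATPases that unfold the substrate and a lid that removes its ubiquitin. Liver cells rely on this machinery for the turnover of regulatory, misfolded and endoplasmic reticulum proteins, including the ethanol-oxidising enzyme Cyp2e1.

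Across the arrays the median liver signal was 121 to 219 units over a background of 21 to 24 units, and the number of arrays limits the precision. Over all genes tested, 986 passed at 5 g/kg against maltose, 57.9% of them higher, and 2328 passed at 7 g/kg, 52% of them higher. The threshold was an adjusted p of 0.05 (Benjamini-Hochberg over all genes) in a limma fit. With median centring in place of loess within arrays, the shares higher were 75.1% and 66.6%. Between the doses 407 genes passed, 43.5% of them higher at 7 g/kg, against 52.4% with median centring and 68.1% with Cy5 alone. The 8 tested hepatocyte markers were all above background on all 10 arrays, with albumin at a mean log2 level of 1.06 over the reference in the maltose group. The 10 arrays lay on 4 slides, and slide 1 held no maltose array. Both ethanol comparisons use the same 3 maltose arrays, so their values below are set side by side and not taken as separate evidence.

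Most proteasome transcripts lay below maltose at both doses, by small amounts, and few passed the test. At 7 g/kg, 30 of the 33 subunits had a log2 change below 0, with a median of −0.25, where the median over all genes was 0.01 and 47.3% of genes lay below 0. Of these 33, 2 fell, the core subunit Psma7 and the ATPase Psmc6, and none rose; 4.28% of all genes tested were called lower and 4.64% higher. After 5 g/kg, 26 of 33 lay below 0, with a median of −0.13 against 0.002 for all genes, where 49.5% lay below 0. No subunit passed in the limma fit at that dose. Of the 33, 5 had an unadjusted p under 0.05, about the share over all genes (15.5%), and at 7 g/kg 16 did, against 20.0% of all genes. The smallest adjusted p at 5 g/kg was 0.0607, for Psma7; 1.59% of all genes were called lower and 2.19% higher. In alternative processing 0 to 1 subunits passed at 5 g/kg and 0 to 5 at 7 g/kg.

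The arrays of each group overlapped less at the higher dose. At 7 g/kg, 19 of the 33 subunits had every ethanol array below every maltose array, where 12.2% of all genes did, and 1 had every ethanol array above, where 13.2% of all genes did. At 5 g/kg, 4 subunits lay wholly below maltose, against 7.71% of all genes, and 1 wholly above, against 9.12%. This count depended on the scaling: at 7 g/kg it was 12 with median centring (9.36% of all genes) and 2 with Cy5 alone (8.09%). After 5 g/kg it was 0 with either (4.57% and 4.12% of all genes). Leaving out single arrays also changed it. The count at 5 g/kg was 13 without maltose replicate 3 (12.1% of all genes) and 14 without ethanol 5 g/kg replicate 1 (10.2%). A smaller group overlaps less for any gene. These arrays were also extreme: maltose replicate 3 was lowest of its group for 26 subunits, and ethanol 5 g/kg replicate 1 highest for 23. The parts of group size and of these arrays in the count were not tested.

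**Figure D1:**
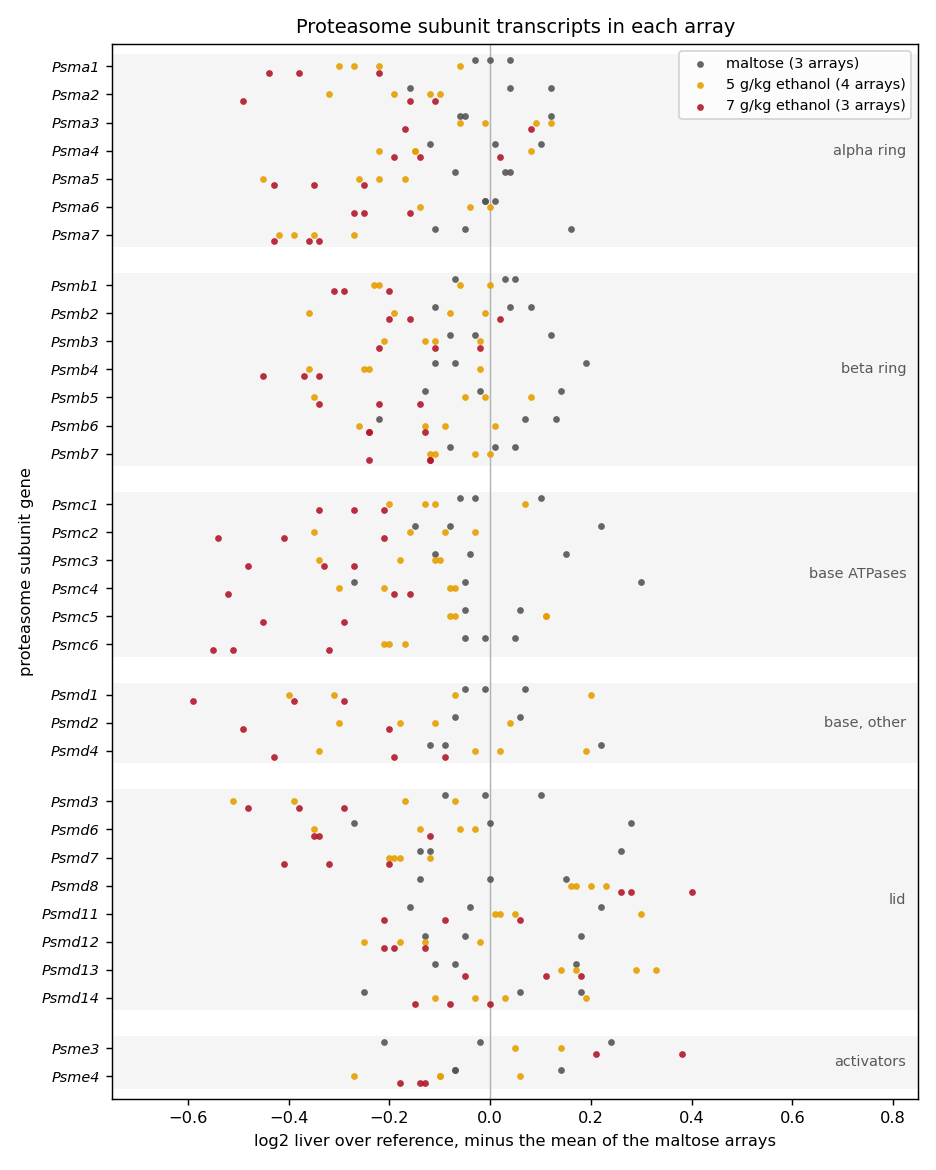
Level of each of the 33 subunit transcripts on each array, as the log2 ratio of liver over reference minus the gene's mean over the maltose arrays (horizontal axis), by role (shaded blocks). Points are arrays: 3 maltose (grey), 4 at 5 g/kg (yellow) and 3 at 7 g/kg (red); 19 genes have every red point left of every grey point, and only Psmd8 has every red point to the right.

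**Figure D2:**
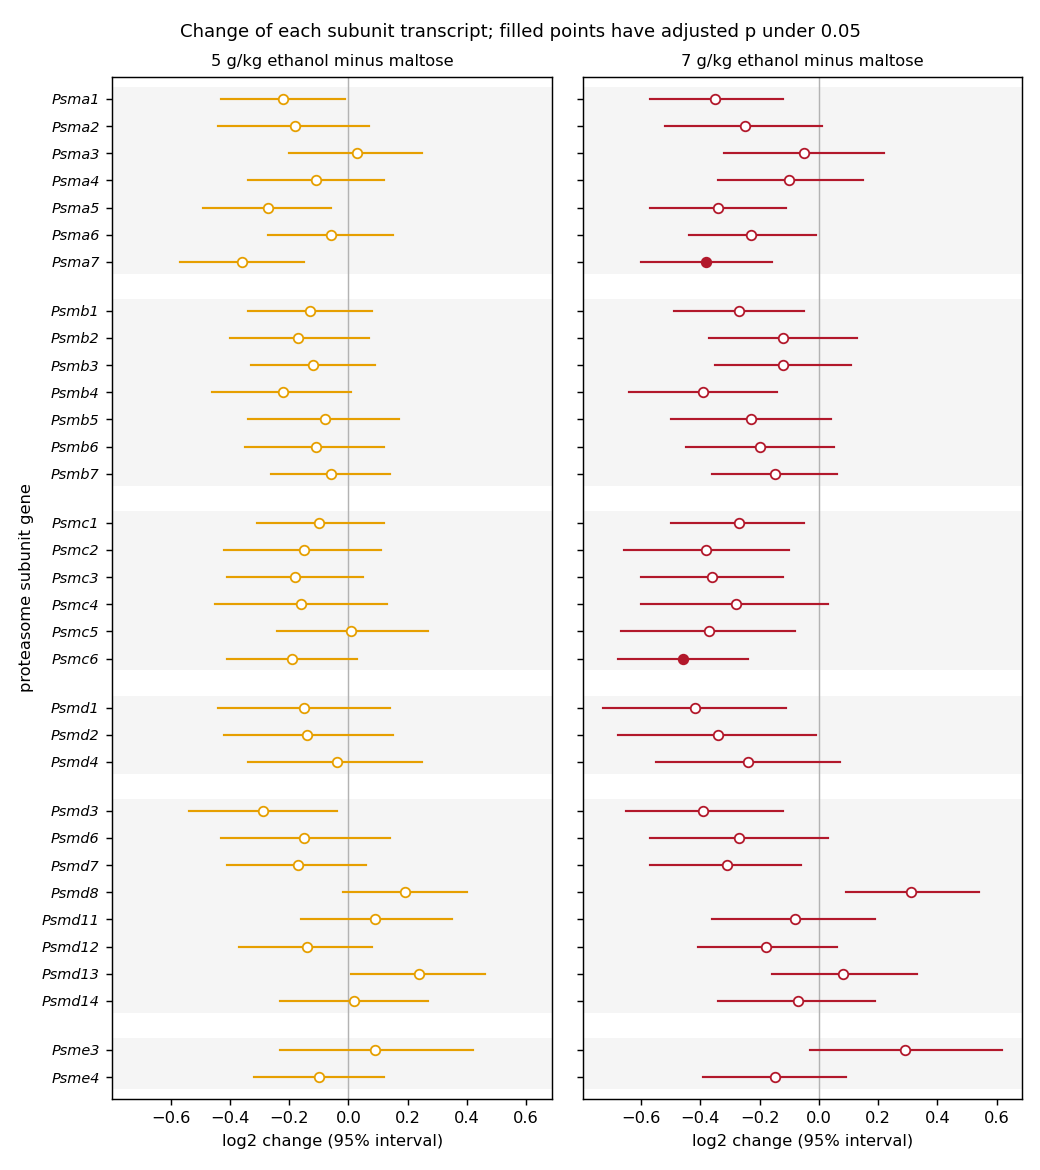
Log2 change of each subunit against maltose at 5 g/kg (left) and 7 g/kg (right), with 95% intervals from the limma fit (horizontal axis). Filled points have an adjusted p under 0.05: none at 5 g/kg, and Psma7 and Psmc6 at 7 g/kg.

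The genes that passed, and the 1 subunit that lay wholly above maltose at both doses, are shown first by the 250 bases upstream of their start, as this is where factors that set subunit transcription bind. Proteasome genes are known targets of the factor Nfe2l1 through antioxidant response elements, and many carry CCAAT boxes. Capitals mark a CCAAT box in Psma7 and, in Psmc6, an element core TGACNNNGC read on the opposite strand; Psmd8 held neither. The sequences are from RefSeq on GRCm38.p6, written 5′ to 3′ on the gene's own strand: Psma7 on the minus strand at chr2:180042465-180042714, Psmc6 on the plus strand at chr14:45329574-45329823 and Psmd8 on the minus strand at chr7:29180674-29180923.
Psma7: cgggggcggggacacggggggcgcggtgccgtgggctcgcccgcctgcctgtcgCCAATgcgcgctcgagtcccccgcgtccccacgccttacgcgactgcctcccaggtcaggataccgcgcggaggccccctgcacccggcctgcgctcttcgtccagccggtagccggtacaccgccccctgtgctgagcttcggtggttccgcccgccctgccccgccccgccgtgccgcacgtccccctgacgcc
Psmc6: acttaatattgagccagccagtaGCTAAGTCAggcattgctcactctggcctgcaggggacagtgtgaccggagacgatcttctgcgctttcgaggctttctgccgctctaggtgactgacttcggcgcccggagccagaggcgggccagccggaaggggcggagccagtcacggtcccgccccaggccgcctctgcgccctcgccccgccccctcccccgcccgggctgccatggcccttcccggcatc
Psmd8: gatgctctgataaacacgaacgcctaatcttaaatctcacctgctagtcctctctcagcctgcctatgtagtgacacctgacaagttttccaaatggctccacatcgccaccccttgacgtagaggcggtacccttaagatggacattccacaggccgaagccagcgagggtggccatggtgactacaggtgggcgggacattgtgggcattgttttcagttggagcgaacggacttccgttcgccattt
The box in Psma7 began 196 bases before the start, and the element core in Psmc6 began 227 bases before it. Such a match is a run of letters and not a shown binding site.

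Over all subunits, the RefSeq table held a promoter window, from 250 bases before to 50 after the start, for 27 of the 33. The element core TGACNNNGC, sought on both strands, lay in 5 of these 27 windows (18.5%), where 14% of 27025 genes in the table held it. The 5 were the catalytic core genes Psmb5 and Psmb6, the regulatory particle genes Psmc6 and Psmd12, and the activator Psme4. The CCAAT box, sought on both strands, was held by 11 of the 27 genes (40.7%), against 41.1% of all genes in the table. It was held by 6 of 11 core and 4 of 14 regulatory particle genes.

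In the alpha ring, whose subunits form the gate of the core, all 7 genes lay below maltose at 7 g/kg, with log2 changes of −0.38 to −0.05 and a median of −0.25. Psma7 fell, and Psma1, Psma5 and Psma6 did not pass but had no overlap with maltose. Psma7 levels were 0.39, 0.12 and 0.18 on the maltose arrays, −0.04, −0.12, −0.16 and −0.19 at 5 g/kg and, at 7 g/kg, −0.11, −0.20 and −0.13. Every ethanol array lay below every maltose array, and the doses overlapped each other. The log2 change of Psma7 was −0.38 ± 0.10 (SE, n = 3 and 3) at 7 g/kg, with a 95% interval of −0.60 to −0.16 and an adjusted p of 0.0350. On the linear scale it fell by 23.2%. At 5 g/kg its log2 change was −0.36, with an interval of −0.57 to −0.15 and an adjusted p of 0.0607. Between the doses it was −0.02, with an interval of −0.23 to 0.19.

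Within slides, Psma7 lay below maltose in each of the 5 differences available. On the log2 scale these were −0.37, −0.43 and −0.24 at 5 g/kg. The 7 g/kg arrays gave −0.31 and −0.24. With slide as a block its log2 change at 7 g/kg was −0.31 and its adjusted p 0.129, so the call was lost there. It passed in 10 of 20 alternatives, and was below 0 in all of them.

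Elsewhere in the alpha ring, Psma5 was at 0.46, 0.47 and 0.36 in maltose livers, 0.17, 0.21, 0.26 and −0.02 at 5 g/kg and, at 7 g/kg, 0.00, 0.18 and 0.08. Here too both ethanol groups lay wholly below maltose. Its log2 changes were −0.27 (adjusted p = 0.182) and −0.34 (adjusted p = 0.0673). Psma1, with −0.22 and −0.35, was the other alpha gene below maltose on every ethanol array at both doses; its adjusted p at 7 g/kg was 0.0572. Psma6 separated from maltose at 7 g/kg, with a log2 change of −0.23, against −0.06 at 5 g/kg. Psma2 (−0.25), Psma4 (−0.10) and Psma3 (−0.05) overlapped with maltose at 7 g/kg. The interval for Psma3 ran from −0.32 to 0.22, and its value was missing on 1 array of that group. The sign turned for Psma4 with Cy5 alone (0.12) and for Psma3 with outlier spots kept (0.05).

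The beta ring holds the catalytic subunits Psmb5 (cleaves after hydrophobic residues), Psmb6 (after acidic residues) and Psmb7 (after basic residues), and 4 structural subunits. All 7 genes lay below maltose at both doses, with median log2 changes of −0.12 and −0.20, and none passed. Psmb4, a structural subunit, had the largest change of the ring at 7 g/kg. Its levels were 0.24, −0.02 and −0.06 on maltose arrays, 0.03, −0.19, −0.20 and −0.31 at 5 g/kg and, at 7 g/kg, −0.29, −0.40 and −0.32. The 7 g/kg arrays lay wholly below maltose and the 5 g/kg arrays overlapped both. The log2 change of Psmb4 at 7 g/kg was −0.39 ± 0.12 (SE, n = 3 and 3), with an interval of −0.64 to −0.14 and an adjusted p of 0.0538.

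The 3 catalytic subunits had smaller log2 changes, of −0.23 (Psmb5), −0.20 (Psmb6) and −0.15 (Psmb7) at 7 g/kg, with adjusted p of 0.346, 0.397 and 0.441. The corresponding values at 5 g/kg were −0.08, −0.11 and −0.06. Psmb5 and Psmb7 lay wholly below maltose at 7 g/kg, and Psmb6 overlapped. Of the other structural subunits, Psmb1 (−0.27 at 7 g/kg) separated from maltose, and Psmb2 and Psmb3 (both −0.12) overlapped with it at either dose.

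The base ATPases, Psmc1 to Psmc6, form the ring that unfolds substrates and threads them into the core. By median over all arrays they lay lowest among the roles at 7 g/kg. All 6 were below maltose, with a median log2 change of −0.365 and a range of −0.46 to −0.27. Of these, 5 lay wholly below maltose, where 12.2% of all genes did. Psmc6 fell, where 4.28% of all genes were called lower. The median of the ATPases at 5 g/kg was −0.16, and 5 of the 6 were below 0. The lowest place at 7 g/kg did not hold within slides, by means of genes centred on maltose. On slide 4 the ATPases went from −0.02 (maltose) to −0.33 (7 g/kg) and the alpha ring from 0.04 to −0.28. On slide 2 the ATPases went from −0.11 to −0.24 and the alpha ring from −0.07 to −0.22. The lowest ATPase mean, −0.48, was on the 7 g/kg array of slide 1, which held no maltose array.

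Psmc6 levels were 0.17, 0.23 and 0.13 on the maltose arrays, −0.03, 0.01 and −0.02 on the 3 arrays that measured it at 5 g/kg and, at 7 g/kg, −0.33, −0.37 and −0.14. The groups stood in order of dose with no overlap between any of them. At 7 g/kg the log2 change of Psmc6 was −0.46 ± 0.10 (SE, n = 3 and 3), with an interval of −0.68 to −0.24 and an adjusted p of 0.0128. On the linear scale it fell by 27.2%. The lower dose gave a log2 change of −0.19, with an interval of −0.41 to 0.03 and an adjusted p of 0.428. Between doses it was −0.27, with an interval of −0.49 to −0.05 and an adjusted p of 0.333, so the step between doses did not pass.

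Within the 2 slides that hold both groups, the log2 difference of Psmc6 between the 7 g/kg and the maltose array was −0.27 and −0.56. With slide as a block its log2 change was −0.45 and its adjusted p 0.0578. The call held in 15 of 20 alternatives. It was lost at −0.41 with median centring (adjusted p = 0.0600), at −0.24 with Cy5 alone (adjusted p = 0.767), without maltose replicate 2 (adjusted p = 0.0511) and without ethanol 7 g/kg replicate 2 (adjusted p = 0.0548).

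The other ATPases at 7 g/kg had log2 changes of −0.38 (Psmc2), −0.37 (Psmc5), −0.36 (Psmc3), −0.28 (Psmc4) and −0.27 (Psmc1), with adjusted p of 0.0673 to 0.312. For Psmc5 the probe used was at 0.02 and −0.09 on the 2 maltose arrays that measured it, 0.07, −0.12, 0.07 and −0.11 at 5 g/kg, and −0.33 and −0.49 on 2 arrays at 7 g/kg. Maltose and 5 g/kg overlapped, and both 7 g/kg arrays lay below all others. Its log2 difference between the doses was −0.38, with an interval of −0.64 to −0.13 and an adjusted p of 0.188. A second Psmc5 probe gave −0.12 between the doses, and the alternatives ran from −0.42 to −0.06. Psmc4 overlapped with maltose at 7 g/kg, where maltose itself ran from −0.29 to 0.28.

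The scaffold subunits Psmd1 and Psmd2, which hold the base together, and the ubiquitin receptor Psmd4 lay below maltose at both doses, with medians of −0.135 and −0.343, and none passed. Psmd1 was at 0.35, 0.23 and 0.27 on maltose arrays, 0.48, −0.03, 0.21 and −0.12 at 5 g/kg and, at 7 g/kg, −0.01, −0.31 and −0.11. The 5 g/kg arrays spread over both other groups, and the 7 g/kg arrays lay wholly below maltose. Its log2 change at 7 g/kg was −0.42 ± 0.15 (SE, n = 3 and 3), with an interval of −0.73 to −0.11 and an adjusted p of 0.0949. Psmd2 (−0.34, measured on 2 maltose and 2 arrays at 7 g/kg) also separated from maltose, but was at 0.03 with Cy5 alone, and Psmd4 (−0.24) overlapped with it.

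The lid was the most mixed of the roles. At 7 g/kg its 8 genes had log2 changes of −0.39 to 0.31 with a median of −0.13, 6 below 0, and at 5 g/kg 4 lay below and 4 above 0. Psmd3, a structural lid subunit, was at 0.19, 0.00 and 0.08 in maltose, 0.02, −0.08, −0.30 and −0.42 at 5 g/kg and, at 7 g/kg, −0.29, −0.39 and −0.20. All 7 g/kg arrays lay below maltose, and the 5 g/kg arrays ran from maltose levels to the lowest of all. Its log2 change at 7 g/kg was −0.39 ± 0.12 (SE, n = 3 and 3), with an interval of −0.65 to −0.12 and an adjusted p of 0.0731.

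Psmd8, another structural lid subunit, went the other way on every array. It was chosen for a full account after its values were seen. Its levels were −0.06, −0.21 and −0.35 on maltose arrays, −0.01, 0.02, −0.04 and −0.05 at 5 g/kg and, at 7 g/kg, 0.07, 0.05 and 0.19. No 2 groups overlapped, and their order was the reverse of that of Psmc6. The log2 change of Psmd8 was 0.19 at 5 g/kg, with an interval of −0.02 to 0.40 and an adjusted p of 0.392. At 7 g/kg it was 0.31 ± 0.10 (SE, n = 3 and 3), with an interval of 0.09 to 0.54 and an adjusted p of 0.0844. It did not pass in any of 20 alternatives, in which the log2 change was 0.24 to 0.39 at 7 g/kg and 0.01 to 0.26 at 5 g/kg, the lowest with Cy5 alone.

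Among the rest of the lid, Psmd7 (−0.31 at 7 g/kg) and Psmd12 (−0.18) lay wholly below maltose, Psmd12 by less than the second decimal. Psmd6 (−0.27), Psmd11 (−0.08), Psmd14 (−0.07), the protease that removes ubiquitin chains, and Psmd13 (0.08) overlapped. Psmd13 stood highest at 5 g/kg, with levels of 0.19, 0.23, 0.07 and 0.04 against 0.07, −0.17 and −0.21 in maltose and −0.15, 0.01 and 0.08 at 7 g/kg. The upper pair of its 5 g/kg arrays lay above all others, and the lower pair within the range of maltose. Its log2 change at 5 g/kg was 0.24, with an adjusted p of 0.297.

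The activators cap the core in place of the regulatory particle and open its gate without ubiquitin. Psme3, a mostly nuclear activator, was at −0.29, 0.16 and −0.10 in maltose, 0.06 and −0.03 on 2 arrays at 5 g/kg, and 0.30 and 0.13 on 2 arrays at 7 g/kg. The maltose arrays spanned those at 5 g/kg and overlapped with 1 of the pair at 7 g/kg. Its log2 change at 7 g/kg was 0.29 ± 0.15 (SE, n = 3 and 2), with an interval of −0.03 to 0.62 and an adjusted p of 0.315, and it was −0.02 with Cy5 alone. Psme4, whose product has been linked to histone turnover and DNA repair, had log2 changes of −0.10 and −0.15.

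Between core and regulatory particle no constant difference appeared. Each subunit was centred on its maltose mean and averaged over the particle on each array. Of the 14 core genes all were below 0 at 7 g/kg, 8 lay wholly below maltose and 1 fell. For the 17 regulatory particle genes these numbers were 15, 10 and 1. Over all genes the shares were 47.3%, 12.2% and 4.28%. The core mean was 0.07, 0.02 and −0.09 on maltose arrays, −0.05, −0.13, −0.16 and −0.26 at 5 g/kg and, at 7 g/kg, −0.25, −0.27 and −0.17. The 7 g/kg arrays lay below all maltose arrays and the 5 g/kg arrays overlapped with both. The group means were 0.00 ± 0.08, −0.15 ± 0.09 and −0.23 ± 0.05 (SD, n = 3, 4 and 3). The regulatory particle mean was 0.01 ± 0.15, −0.08 ± 0.10 and −0.23 ± 0.11 (SD, n = 3, 4 and 3). By role at 7 g/kg, the ATPases averaged −0.35 ± 0.12, the alpha ring −0.25 ± 0.03, the beta ring −0.21 ± 0.07 and the lid −0.11 ± 0.07 (SD, n = 3). Of the roles averaged here, the regulatory particle thus held both the lowest and the one nearest maltose. The 3 base scaffold and receptor genes (median log2 change −0.343) and the 2 activators (0.07) were not averaged by array.

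Core minus regulatory particle was −0.10, 0.05 and 0.03 on the maltose arrays, −0.09, −0.07, −0.08 and −0.05 at 5 g/kg and, at 7 g/kg, −0.03, 0.07 and −0.05 on the log2 scale. The 5 g/kg arrays were alike and negative, but within the range of the maltose arrays. Group means were −0.01 ± 0.08, −0.07 ± 0.02 and 0.00 ± 0.06 (SD, n = 3, 4 and 3). Restricted to the 27 subunits measured on all arrays, of which 12 are core and 14 regulatory, they were 0.00 ± 0.09, −0.10 ± 0.01 and −0.04 ± 0.03. In each set the differences between groups were about the spread between the maltose arrays. Within slides, core minus regulatory particle differed from maltose at 5 g/kg by −0.08 (slide 2), 0.01 (slide 3) and −0.12 (slide 4). The 7 g/kg arrays differed from maltose by −0.08 on slide 2 and −0.08 on slide 4. The 7 g/kg array at 0.07 and the maltose array at −0.10 have no such partner on their slides. The part of slide in this contrast was not tested. No p is given for a mean over chosen genes.

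**Figure D3:**
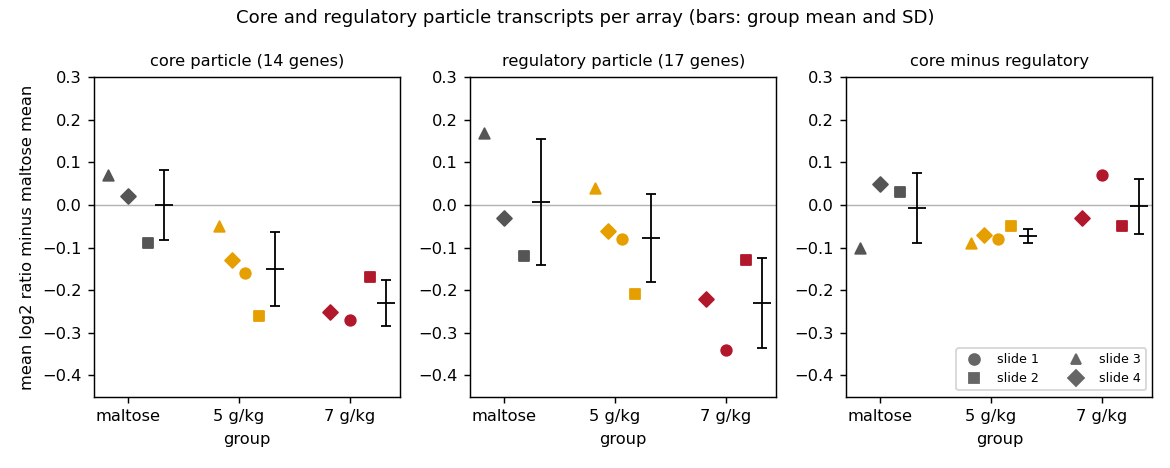
Mean log2 ratio per array of the 14 core and 17 regulatory particle transcripts, each centred on its maltose mean, and their difference (vertical axis), by group; symbols give the slide, and bars the group mean and SD. The core mean lies at −0.15 and −0.23 in the ethanol groups and the regulatory mean at −0.08 and −0.23, while the difference stays between −0.10 and 0.07 on every array.

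Within groups, most subunits were high or low on the same arrays. In the maltose group, replicate 1 was the highest array for 24 of the 31 subunits it measured, and replicate 3 the lowest for 26 of 33. In the 5 g/kg group, replicate 4 was lowest for 23 subunits. At 7 g/kg, replicate 2 was lowest for 23. The median over subunits, centred on the maltose mean, was 0.13, −0.01 and −0.11 on the maltose arrays, −0.02, −0.10, −0.15 and −0.24 at 5 g/kg and, at 7 g/kg, −0.22, −0.34 and −0.19. The 7 g/kg arrays lay below all maltose arrays, and the 5 g/kg arrays overlapped with both. Without maltose replicate 1 the median log2 change over the 33 subunits was −0.05 at 5 g/kg and −0.16 at 7 g/kg.

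Slide moved with the result. On slide 2, which held 1 array of each group, the median log2 difference over subunits was −0.14 at 5 g/kg (26 of 32 below 0) and −0.05 at 7 g/kg (18 of 29 below 0). On slide 4, also with 1 array of each group, it was −0.08 (26 of 30) and −0.23 (30 of 33), and on slide 3 it was −0.10 at 5 g/kg (25 of 31). The median over all genes in these differences lay between −0.02 and 0.01. With slide as a block in the fit the median at 7 g/kg was −0.19, and no subunit passed. The part of slide or of single arrays in the result was not tested beyond these values.

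Between the doses, 29 of 33 subunits were lower at 7 g/kg than at 5 g/kg, with a median log2 difference of −0.125, where 48.4% of all genes were lower. No subunit passed in the limma fit, 2 had an unadjusted p under 0.05 (Psmc5 and Psmc6) where 10.8% of all genes did, and 0.880% of all genes were called lower and 0.678% higher. In 5 subunits all 7 g/kg arrays lay below all 5 g/kg arrays: Psma6, Psmc1, Psmc5, Psmc6 and Psmd7. Over all genes 6.02% did, and 4.93% lay wholly higher. The nearest arrays of the 2 doses were at −0.27 and −0.28 for Psmc1 and −0.09 and −0.11 for Psma6. For Psmd7 they differed by less than the second decimal. Psma6 and Psmc6 were measured on 3 arrays at 5 g/kg, and Psmc5 on 2 at 7 g/kg. The ATPases had the lowest median of the roles with more than 3 genes, −0.20, against −0.07 in the alpha ring, −0.10 in the beta ring and −0.11 in the lid. The difference depended on the array used: it was 0.07 on slide 2 (8 of 29 below 0), −0.13 on slide 1 (28 of 33) and −0.13 on slide 4 (25 of 30), and with Cy5 alone the median was −0.02.

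Of the 33 subunits, 9 had more than 1 probe above background, and in 8 of these all probes had the same sign at 7 g/kg. The exception was Psmd12, with −0.18 for the probe used and 0.05 and −0.17 for the others. For Psme4 the 3 probes gave −0.15, −0.48 and −0.01, and for Psmd7 the pair gave −0.31 and −0.52. With the mean over all probes of a gene in place of the brightest, 5 subunits passed at 7 g/kg and 1, Psma7, at 5 g/kg (adjusted p = 0.0493).

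Psmb8, Psmb9 and Psmb10 replace the catalytic subunits in the immunoproteasome, which interferon induces for antigen processing, and Psme1 and Psme2 form its activator. None of the 5 passed in the limma fit in any comparison. An unadjusted p under 0.05 was found for 2 at 5 g/kg, 0 at 7 g/kg and 2 between doses, against 15.5%, 20.0% and 10.8% of all genes. All 5 were below maltose at 5 g/kg, with a median log2 change of −0.22, and their median at 7 g/kg was −0.01. Psmb10 was at −0.14, −0.01 and −0.02 in maltose, −0.26, −0.28, −0.29 and −0.50 at 5 g/kg and, at 7 g/kg, −0.14, 0.04 and 0.12. Its 5 g/kg arrays lay below all others, and the other groups overlapped. Its log2 change was −0.27 at 5 g/kg and 0.06 at 7 g/kg, and the difference between doses of 0.34 had an adjusted p of 0.166. Psmb8 had −0.29 and 0.06, with overlap throughout. The others had −0.03 and −0.08 (Psmb9), −0.18 and −0.01 (Psme1), and −0.22 and −0.09 (Psme2). None of these was tested against the core subunits.

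Of the chaperones that build the proteasome, 9 were listed and 8 tested, and 2 fell at 7 g/kg. Their median log2 changes were −0.16 at 5 g/kg and −0.28 at 7 g/kg, and 6 of 8 lay wholly below maltose at 7 g/kg. Over all genes 12.2% lay wholly below maltose at that dose, and 4.28% were called lower. How the overlap count of the chaperones depends on scaling was not tested. Psmd9, a chaperone for the ATPase ring, was at 0.51, −0.03 and 0.16 in maltose, 0.22, 0.05, −0.26 and −0.25 at 5 g/kg and, at 7 g/kg, −0.51, −0.79 and −0.49. The 7 g/kg arrays stood below all others. Its log2 change at 7 g/kg was −0.81 ± 0.16 (SE, n = 3 and 3), with an interval of −1.15 to −0.47 and an adjusted p of 0.0048, a fall on the linear scale to 0.570 of the maltose level. The mean over its probes gave −0.50 (adjusted p = 0.0406), and with Cy5 alone the call was lost at −0.79 (adjusted p = 0.169). At 5 g/kg it was −0.27, with an adjusted p of 0.424.

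Psmg1, which starts the assembly of the alpha ring, was at 0.21, 0.20 and 0.13 in maltose, −0.06, −0.18, −0.23 and −0.21 at 5 g/kg and, at 7 g/kg, −0.30, −0.35 and −0.11. Both ethanol groups lay wholly below maltose. Its log2 change was −0.35 at 5 g/kg (adjusted p = 0.0627) and −0.43 ± 0.10 at 7 g/kg (SE, n = 3 and 3; adjusted p = 0.0163). With slide as a block the adjusted p at 7 g/kg was 0.0796. The call was also lost with median centring (−0.34, adjusted p = 0.142) and with Cy5 alone (−0.27, adjusted p = 0.672). On leaving out each of the 10 arrays in turn it was lost 4 times, with log2 changes of −0.50 to −0.38. Pomp, which completes the core, was at 0.05 and 0.08, so the chaperones did not all lie on 1 side.

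Vcp, the segregase that pulls ubiquitin-tagged proteins out of complexes and membranes, had log2 changes of −0.22 and −0.17. Of 9 regulators, the acute phase factor Stat3 rose at both doses, with log2 changes of 0.90 (adjusted p = 0.00188) and 1.33 (adjusted p = 6.05e-05). The median of the list was −0.10 and −0.21. Nfe2l1, which drives subunit transcription when proteasome activity is short, had −0.22 (adjusted p = 0.543) and −0.35 (adjusted p = 0.221). Its levels were 0.66, 0.19 and −0.01 in maltose and −0.11, −0.02 and −0.07 at 7 g/kg, so the groups stood apart by a narrow margin around 1 low maltose array. Nfe2l2, the oxidative stress factor, had 0.05 and −0.13. None of 6 accessory subunits, of 5 tested ubiquitin and ubiquitin-activating genes, or the thymus subunit Psmb11 passed; Ubb had −0.06 and 0.02.

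**Figure D4:**
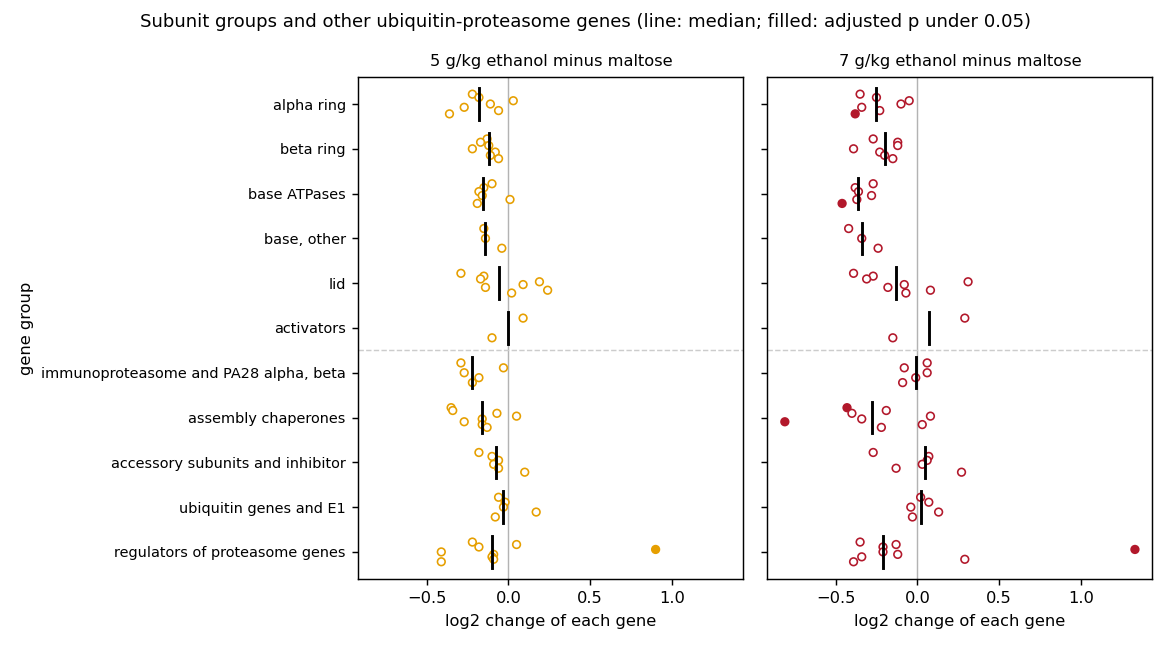
Log2 change against maltose of each gene (horizontal axis) at 5 g/kg (left) and 7 g/kg (right), by subunit role above the dashed line and by list of other ubiquitin-proteasome genes below it. Lines are group medians and filled points have an adjusted p under 0.05; at 7 g/kg the medians are −0.365 for the base ATPases, −0.28 for assembly chaperones and −0.01 for the immunoproteasome list.

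Markers of other liver cell types also differed between the groups. In whole liver, fewer cells of a type and less RNA per cell cannot be told apart. The mean log2 level over 7 endothelial markers was −0.45 to −0.30 on maltose arrays, −0.12 to 0.00 at 5 g/kg and −0.06 to 0.04 at 7 g/kg. Of 8 tested, 2 were higher at 5 g/kg and 3 at 7 g/kg. For this and the other marker lists, 2.19% and 4.64% of all genes were called higher at these doses, and 1.59% and 4.28% lower. The log2 changes of the endothelial markers at 7 g/kg were uneven, from −0.28 (Kdr) to 1.72 (Lyve1), with a list median of 0.21. Over 7 neutrophil markers the mean level was −0.26 to −0.15, −0.21 to 0.28 and 0.10 to 0.30 in the same groups. Of 8 tested, 2 rose at 7 g/kg, S100a8 and S100a9, by 1.28 and 1.40. The other neutrophil markers did not pass, with log2 changes of −0.13 (Camp) to 0.17 (Retnlg), and the list median was 0.08. The 8 Kupffer cell and macrophage markers gave mean levels of −0.23 to −0.04, −0.19 to −0.06 and −0.35 to 0.00, and none passed. Over 6 hepatocyte markers with a value on every array the mean level was −0.03 to 0.27, 0.47 to 0.74 and 0.56 to 0.87. Fgb, an acute phase gene, had the largest change at 7 g/kg, 2.64, and weighed most in this mean. The others of these 6 had 0.72 (Tat), 0.69 (Ttr), 0.08 (Alb), −0.16 (Apoa1) and −0.76 (Cyp2e1). Of 8 tested hepatocyte markers 3 rose and 1, Cyp2e1, fell at 7 g/kg. Of the T, B and NK cell, stellate cell, cholangiocyte and erythroid markers, 2 of 10, 0 of 7, 0 of 5 and 1 of 3 tested rose at 7 g/kg and none fell. At 5 g/kg Nkg7 of the first list rose by 0.62, the stellate marker Dcn rose by 0.73 and the cholangiocyte marker Spp1 fell by 0.48 on the log2 scale. The part of cell makeup in the subunit values was not tested.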

How the data were processed

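Liver RNA was measured on 10 2-colour Agilent arrays. The scanner software was Agilent Feature Extraction 11.5.1.1, per the file headers, and gave the median intensity of each spot and its background; the deposited processed intensities and log10 ratios (red over green) came from it too. The deposited series table holds log2 ratios, a scale read from its slope of 3.31 to 3.33 on the log10 ratio (r = 0.938 to 0.998); its column medians were −0.0734 to 0.076 and its steps are not given in the sources used here.

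Median intensities were corrected with normexp (offset 50) and normalized by loess within arrays in R 4.3.3 with limma 3.58.1. Control spots and outlier-marked spots (2.42% to 5.83% per array) were left out. Probes above background in liver on at least 3 arrays were kept (33941 of 41174), and genes needed 2 values per group; 59.2% of probes matched a symbol through RefSeq annotation of GRCm38.p6. One limma fit of 3 group means (7 residual and 7.3 prior degrees of freedom) gave two-sided p-values, adjusted by Benjamini-Hochberg over 26122 genes. Log2 changes had a median SE of 0.12 at 5 g/kg and 0.128 at 7 g/kg. The steps were tested on simulated data.

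The subunits and all gene lists were chosen with earlier results of these data known. Values on every array are given for subunits that passed and for the largest change at 7 g/kg in each role, and for Psma5, Psmc5, Psmd8 and Psmd13, added after their values were seen; pathway genes are named where they passed or by a preset list, and 1 list of substrate delivery genes is not reported here. Alternatives changed source, normalization, channel, filter, probe choice, outlier spots, slide or replicate block and array weights, and left out each array.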

Additional observations from a re-analysis of the deposited data

Results flagged for a closer look

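Only the 4 arrays at 5 g/kg form a group large enough to be searched for an array far from the rest, and 32 such groups of values were searched, of which chance alone sets apart about 1 in 20. In 1 of them an array stood apart. Psmd11, a lid subunit, was at 0.57 (log2 liver over reference) on replicate 3 at 5 g/kg, where the other arrays of the group lay at 0.28 to 0.32. The gap was 0.859 of the group's range, beyond Dixon's limit for 4 values. None of the other subunits with all 4 values, the median over subunits or core minus regulatory particle had such an array; Psma6, Psmc6 and Psme3 lack a value in this group and were not searched.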

How the results depend on the processing

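The median over the 33 subunits stayed below 0 in every comparison under all 20 alternatives, with 28 to 30 subunits below 0 at 7 g/kg, 24 to 31 at 5 g/kg and 19 to 31 between doses. The median at 7 g/kg was −0.262 to −0.187 over the alternatives with all arrays and −0.304 to −0.16 on leaving out 1 array; at 5 g/kg the latter gave −0.178 to −0.0477 and between doses −0.172 to −0.0935. With Cy5 alone the median between doses moved to −0.0176, against −0.015 for all genes, with 19 of 33 below 0. The number of subunits passing at 7 g/kg, 2 in the main analysis, was 0 with median centring, Cy5 alone or slide as a block, 1 with the scanner's processed ratio or the series table, 5 with the mean over probes and 4 with array weights; without 1 array it was 0 to 4, with 0 without ethanol 7 g/kg replicate 2, 4 without ethanol 5 g/kg replicate 1, and 1 without any of the maltose arrays or ethanol 7 g/kg replicate 1. At 5 g/kg it was 1 with the mean over probes or array weights (Psma7, adjusted p = 0.0462 with weights) and otherwise 0, also on leaving out 1 array (0 to 0). Between doses it was 0 throughout.

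The arrays share replicate numbers across groups, and the labels do not say whether the numbers pair them. Deviations of same-numbered arrays from their group means correlated at −0.209 to 0.207 over 9 pairs. Those of the other 24 pairs correlated at −0.321 to 0.238. So few arrays per group cannot show whether the numbers mark pairs. With the replicate number as a block 4 subunits passed at 7 g/kg (Psma7, Psmb4, Psmc6 and Psmd1), 0 at 5 g/kg and 0 between doses.

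Counts of subunits wholly below the other group, tried after seeing the data, were 0, 12 and 1 in the 3 comparisons with median centring and 0, 2 and 0 with Cy5 alone; between doses the mean over probes gave 3. Without 1 array they ran from 4 to 14 at 5 g/kg, 18 to 25 at 7 g/kg and 4 to 12 between doses, where all genes gave 7.73% to 12.1%, 12.2% to 17.3% and 5.94% to 10.1%, the last count with 12 without ethanol 5 g/kg replicate 4 and 10 without ethanol 7 g/kg replicate 3. Core minus regulatory particle moved by less than the spread between arrays, with −0.115 to −0.0538, −0.0439 to 0.0279 and 0.0601 to 0.0945 on leaving out 1 array. Psme3 turned to −0.22 at 5 g/kg and −0.02 at 7 g/kg with Cy5 alone, and to −0.01 at 5 g/kg without maltose replicate 1, in a range up to 0.21 on leaving out 1 array. The cause of these changes was not tested.

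Over all genes, the number passing was 516, 117 and 577 at 5 g/kg (processed ratio, Cy5 alone, series table), 590 at 7 g/kg with Cy5 alone, and 116, 47 and 137 between doses, where the main analysis gave 986, 2328 and 407. Signal over background did not limit the subunits, which were all well above it; 6 of them lacked a value on at least 1 array.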
